A study of Mus musculus with 29 samples.

Results

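The clathrin coat of endocytosis is described here through 10 mouse genes: Ap2b1, Ap2a1, Ap2a2, Ap2m1 and Ap2s1, which encode the subunits of the adaptor complex AP-2, Clta, Cltb and Cltc, which encode the clathrin chains, and Picalm and Dnm2. They were located by Ensembl identifier, and all 10 were found among the 38924 genes of the table for blood stem and progenitor cells and among the 18194 genes of the table for niche cells. Ap2b1 was chosen by its lower level, past the test, in blood stem and progenitor cells from Wnt5a niches, and the others because they build the same coat. The difference of Ap2b1 in those cells, and all other values of that comparison, are therefore given as a description, with no test read from them.

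The study profiled LSK cells, a sorted bone marrow fraction without lineage markers and with Sca-1 and Kit on the surface that holds the blood stem cells, after they had regenerated in transplanted hosts. A total of 5 LSK libraries came from Wnt5a-haploinsufficient niches, called Wnt5a here, and 6 from WT niches. The niche itself was profiled as sorted endothelial (EC), osteoblastic (OBC) and mesenchymal (MSC) cells, with 3 Wnt5a and 3 WT libraries for each population. All 29 libraries carry the strain label 129Ly5.1, and the labels name a niche genotype for each. Whether the transplanted LSK cells themselves carried both copies of Wnt5a, how many cells or animals entered a library and the age of the animals are not given in the labels. Libraries of a group were treated as replicates, so the spread and the p-values measure differences between these samples, part of which may be technical.

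In clathrin-mediated endocytosis, AP-2 binds the lipid PIP2 and sorting signals of cargo receptors at the plasma membrane and recruits clathrin, whose heavy and light chains form the cage. The large subunits of AP-2 are the beta 2 chain (Ap2b1) and an alpha chain (Ap2a1 or Ap2a2), the medium chain mu 2 (Ap2m1) reads tyrosine signals, and the small chain sigma 2 (Ap2s1) helps to read dileucine signals. PICALM brings SNARE proteins into the pit and shapes the membrane, and the GTPase dynamin 2 (Dnm2) cuts the vesicle neck. Surface levels of growth factor, transferrin and WNT receptors are set in part by this route.

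The LSK libraries held 1573560 to 3690114 reads in Wnt5a and 1254553 to 5775459 reads in WT. The summed level of 10 LSK marker genes was 3242 to 3863 CPM (read counts scaled to a common library total) in Wnt5a and 3036 to 4291 CPM in WT. That sum alone does not identify the cells, since in EC WT libraries, from another protocol, it was 2058 to 3507 CPM. All 10 genes were detected in both LSK groups, while Flt3, Meis1, Hlf and Myb had no counts in EC WT. Reads of satellite-like loci took 0.341 to 6.73% in Wnt5a and 0.0836 to 0.417% in WT libraries, and reads of the mitochondrial genome took 2.54 to 8.96% in Wnt5a and 1.77 to 3.39% in WT. Immunoglobulin genes took 8.28% of reads in Wnt5a replicate 5, against 0.264 to 0.972% in the other Wnt5a libraries and 0.262 to 2.12% in WT. In bulk samples of this kind, fewer cells of a type and less RNA per cell cannot be told apart.

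The promoters of 4 AP-2 genes are shown because Ap2a1, Ap2b1 and Ap2s1 had the 3 most negative log2 fold changes of the coat genes in LSK cells and Ap2m1 the 1 positive value among the AP-2 genes. Each window runs from 250 bases before to 50 bases after the RefSeq start on GRCm38.p6 and is printed 5′ to 3′ on the gene's own strand. The windows are chr11:83302447-83302746 on the plus strand for Ap2b1, chr7:44929441-44929740 on the minus strand for Ap2a1, chr7:16738194-16738493 on the plus strand for Ap2s1 and chr16:20535230-20535529 on the plus strand for Ap2m1. Capitals mark matches on either strand to 6 motifs. These are the GC box with the letters GGGCGG, the CCAAT box, the TATA box with the letters TATAAA, the E-box of the factor TFEB with the letters CACGTG, the site of ETS factors with the letters CCGGAAG, and the cAMP response element (CRE) with the letters TGACGTCA. No matches overlap in the 4 windows.
Ap2b1: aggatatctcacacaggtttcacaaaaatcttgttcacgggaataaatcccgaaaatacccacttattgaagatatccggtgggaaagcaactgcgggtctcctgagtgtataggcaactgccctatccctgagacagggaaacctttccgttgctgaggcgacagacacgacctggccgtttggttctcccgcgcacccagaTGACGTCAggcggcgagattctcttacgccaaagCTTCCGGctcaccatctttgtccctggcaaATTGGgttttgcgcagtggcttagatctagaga
Ap2a1: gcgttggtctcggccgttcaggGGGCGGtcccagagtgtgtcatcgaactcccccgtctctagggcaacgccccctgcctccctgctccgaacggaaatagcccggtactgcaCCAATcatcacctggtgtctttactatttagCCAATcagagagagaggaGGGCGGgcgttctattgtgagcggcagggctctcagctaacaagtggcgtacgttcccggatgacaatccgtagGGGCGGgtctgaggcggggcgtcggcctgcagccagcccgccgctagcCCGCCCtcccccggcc
Ap2s1: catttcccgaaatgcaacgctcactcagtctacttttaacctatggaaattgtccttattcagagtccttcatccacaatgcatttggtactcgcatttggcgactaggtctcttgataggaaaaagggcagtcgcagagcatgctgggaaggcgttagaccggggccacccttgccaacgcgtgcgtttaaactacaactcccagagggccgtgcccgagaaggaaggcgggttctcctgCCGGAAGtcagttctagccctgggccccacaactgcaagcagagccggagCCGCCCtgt
Ap2m1: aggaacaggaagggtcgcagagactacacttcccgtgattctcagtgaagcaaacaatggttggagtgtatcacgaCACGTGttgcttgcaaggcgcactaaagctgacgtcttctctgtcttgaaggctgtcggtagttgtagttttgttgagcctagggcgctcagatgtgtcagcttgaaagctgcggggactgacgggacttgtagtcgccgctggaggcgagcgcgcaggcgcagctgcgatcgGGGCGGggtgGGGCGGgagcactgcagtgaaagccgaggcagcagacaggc
The Ap2b1 window held 1 CRE, 1 ETS site and 1 CCAAT box and no GC box, and the Ap2a1 window held 4 GC boxes and 2 CCAAT boxes. The Ap2s1 window held 1 ETS site and 1 GC box, and the Ap2m1 window held 2 GC boxes and 1 E-box. Ap2b1 and Ap2s1 thus both had an ETS site, and the other 8 coat genes had none in their windows. The only other coat gene with a CRE was Cltb. Of 32851 RefSeq promoter windows of the same length, 1.79% held a CRE, 8.86% an ETS site, 7.15% the E-box, 35.7% a GC box, 37.4% a CCAAT box and 13.6% a TATA box. None of the 10 genes had the TATA letters in this window. These matches are letters in a window and were not tested as binding sites.

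Ap2b1 (ENSMUSG00000035152, protein coding, chromosome 11 from 83299024 to 83405035, plus strand, GRCm38) was lower in LSK cells from Wnt5a niches. Its 5 Wnt5a libraries had 26.8, 41.1, 44.7, 32.9 and 36.1 CPM, against a lowest value of 81.8, a median of 90.4 and a highest value of 101 CPM in the 6 WT libraries. Every Wnt5a library lay below every WT library, and the spread was small in both groups (36.3 ± 7.01 CPM, SD, n = 5, against 90.8 ± 8.20 CPM, SD, n = 6). These levels rest on 44 to 145 reads per Wnt5a library and 103 to 619 per WT library. The log2 fold change was -1.32 (SE 0.21), which is 0.401 times the WT level. Of 13098 genes tested, 0.0229% passed edgeR's test and 0.0153% passed as lower. Groups that did not overlap were found for 2.74% of genes, and for 1.57% with Wnt5a lower. Ap2b1 was the 1 coat gene of 10 that passed and the 1 whose groups did not overlap, which is the pattern it was chosen for.

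**Figure D1:**
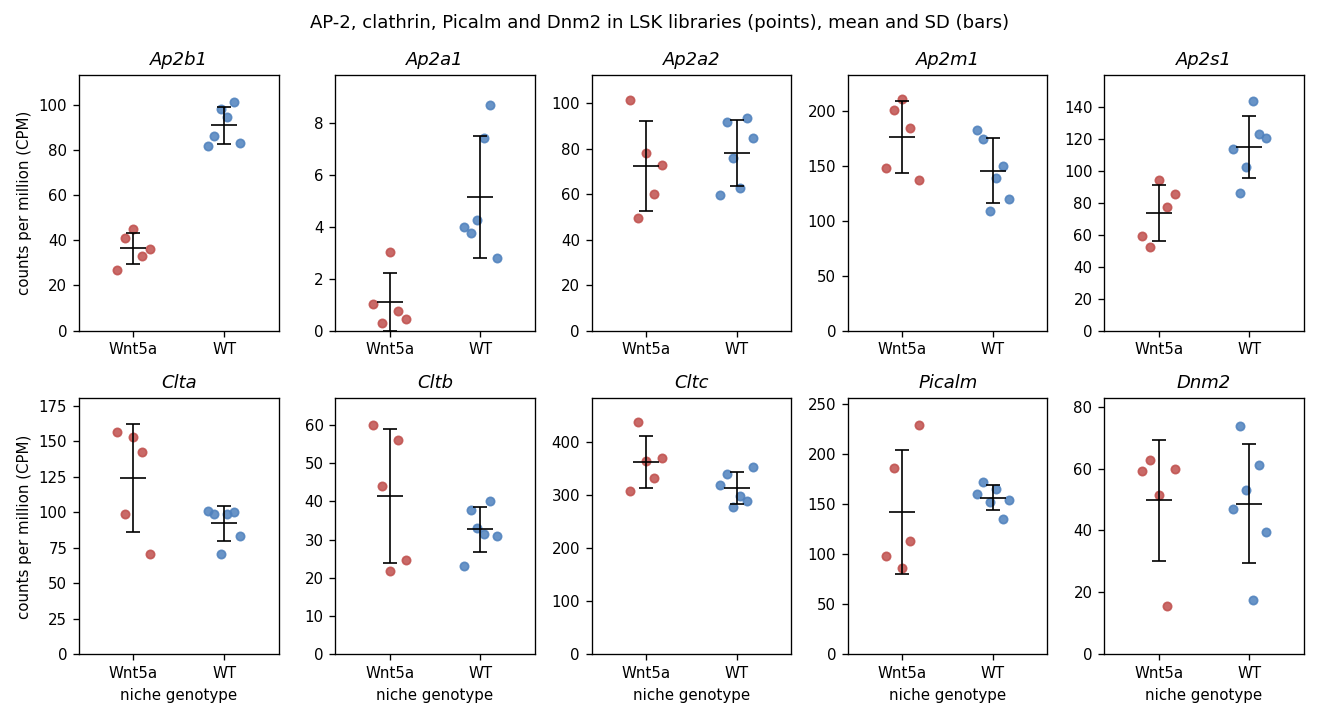
CPM of the 10 coat genes in each LSK library (points) by niche genotype, with the mean and SD (bars); each panel has its own axis from 0. The Wnt5a points of Ap2b1 (26.8 to 44.7 CPM) lie below all WT points (81.8 to 101 CPM), while the groups of the other 9 genes overlap.

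The other large subunits divided by paralogue. Ap2a1 (alpha A), which was close to the limit of detection, had 3, 1, 5, 1 and 1 reads in the Wnt5a libraries, against 5 to 28 reads in the WT libraries. This was 1.10 ± 1.11 CPM in Wnt5a and 5.15 ± 2.34 CPM in WT (SD, n = 5 and 6), with a log2 fold change of -2.28 (SE 0.71). The groups met in 1 place, since Wnt5a replicate 3 (3.02 CPM) lay above the lowest WT library (2.79 CPM). In 3 of the 5 Wnt5a libraries Ap2a1 had fewer than 3 reads, the floor used here. Without Wnt5a replicate 3 the log2 fold change was -3.01. Ap2a2 (alpha C), the paralogue with the higher level per kilobase, had 101, 49.7, 78.0, 59.8 and 72.6 CPM in Wnt5a, against 59.6 to 93.3 CPM in WT with a median of 80.4. Its groups overlapped throughout, with a log2 fold change of -0.10 (SE 0.23).

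The medium and small subunits had opposite signs. Ap2m1 (mu 2) had 148, 202, 211, 185 and 137 CPM in Wnt5a, against 109 to 183 CPM in WT with a median of 144. Its log2 fold change was 0.28 (SE 0.19), and the highest 3 values of all 11 libraries were in Wnt5a. Ap2s1 (sigma 2) had 59.1, 52.5, 94.3, 77.0 and 85.2 CPM in Wnt5a, against 86.1 to 143 CPM in WT with a median of 117. Its means were 73.6 ± 17.6 CPM in Wnt5a and 115 ± 19.5 CPM in WT, a log2 fold change of -0.64 (SE 0.21). The groups overlapped through Wnt5a replicate 3, which lay above the lowest WT library.

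Clathrin itself had positive log2 fold changes for all 3 chains, each with overlapping groups. Clta, light chain A, had 157, 98.7, 153, 142 and 70.4 CPM in Wnt5a, against 70.9 to 101 CPM in WT (log2 fold change 0.44, SE 0.22). In Clta, 3 Wnt5a libraries stood above every WT library and 1 stood below every WT library. Cltb, light chain B, ran from 21.8 to 60.1 CPM in Wnt5a and from 23.0 to 40.0 CPM in WT (0.34, SE 0.31). Cltc, the heavy chain and the coat gene with the most reads, ran from 308 to 437 CPM in Wnt5a and from 277 to 352 CPM in WT (0.22, SE 0.15).

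Picalm and Dnm2 differed little in their means. Picalm had 98.4, 186, 85.9, 113 and 229 CPM in Wnt5a, against a narrow 135 to 172 CPM in WT. The SD was 62.1 CPM in Wnt5a and 12.6 CPM in WT around similar means (142 and 156 CPM), with a log2 fold change of -0.13 (SE 0.23). The 2 Wnt5a libraries highest in Picalm, replicates 5 and 2, were the 2 lowest in Clta, and the 2 lowest in Picalm, replicates 3 and 1, were the 2 highest in Clta. Dnm2 ran from 15.7 to 62.7 CPM in Wnt5a and from 17.7 to 73.6 CPM in WT (0.05, SE 0.37), and the lowest library of each group stood apart from the others of its group.

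**Figure D2:**
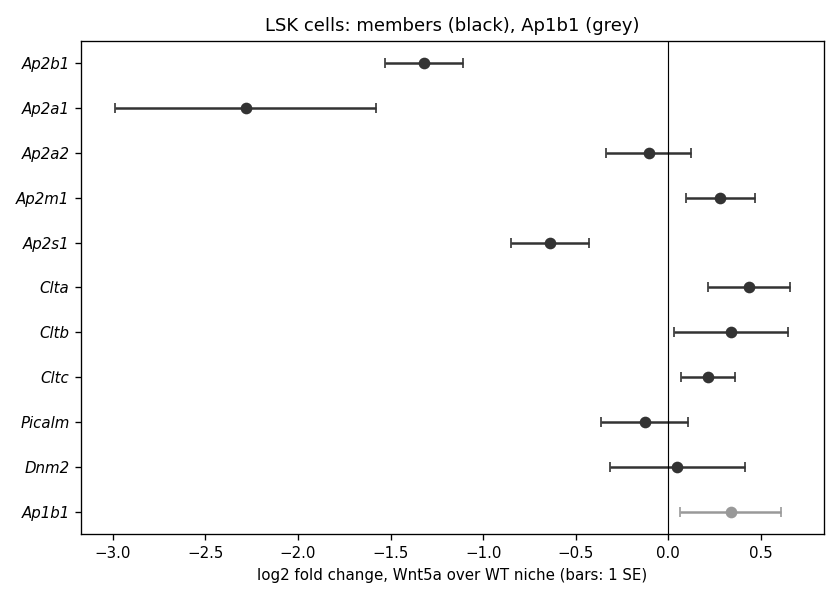
Log2 fold change (Wnt5a over WT, horizontal axis) with 1 SE for the coat genes (black) and for Ap1b1 (grey) in LSK cells. The values run from Ap2a1 (-2.28), Ap2b1 (-1.32) and Ap2s1 (-0.64) on the left to Cltc (0.22), Ap2m1 (0.28), Cltb (0.34) and Clta (0.44) on the right.

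Over the 10 coat genes, 5 log2 fold changes were positive and 5 negative, with a median of -0.03 beside 0.02 for all genes tested. All 10 passed the filter on low counts, Ap2a1 with at most 5 reads in any Wnt5a library. Together they took 0.0862 to 0.112% of reads in Wnt5a and 0.107 to 0.123% in WT. Without Ap2b1 this was 0.0834 to 0.108% in Wnt5a and 0.0960 to 0.114% in WT.

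Scaled by exon length, the order of the coat genes shifted at Ap2b1. In Wnt5a, Ap2b1 stood at 4.15 ± 0.800 CPM per kilobase, below all other coat genes but Ap2a1 (0.256 ± 0.258). In WT it stood at 10.4 ± 0.937, between Ap2a2 (13.8 ± 2.55) and Picalm (9.94 ± 0.800), from which it did not differ beyond the spread. At the top, Clta had 69.0 ± 21.1 and Ap2s1 50.02 ± 11.9 CPM per kilobase in Wnt5a, and Ap2s1 had 77.9 ± 13.3 and Clta 51.2 ± 6.86 in WT. Ap2m1 (42.9 ± 7.88 in Wnt5a, 35.4 ± 7.18 in WT) and Cltc (42.6 ± 5.76 in Wnt5a, 36.7 ± 3.49 in WT) followed within each other's spread. Dnm2 (9.34 ± 3.66 in Wnt5a, 9.13 ± 3.60 in WT) and Cltb (8.49 ± 3.61 in Wnt5a, 6.72 ± 1.23 in WT) were also within the spread of their neighbours in the order. The lengths are those of all annotated exons of a gene joined together, so these levels depend on which transcripts are used.

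Ratios within a library do not depend on scaling between libraries. The beta 2 chain relative to the mu 2 chain, as counts per kilobase, was 0.0838 to 0.124 in Wnt5a and 0.210 to 0.423 in WT. Relative to the alpha C chain it was 0.171 to 0.536 in Wnt5a and 0.609 to 0.976 in WT. Ap2b1 supplied 3.15 to 4.79% of the summed per-kilobase reads of the 5 AP-2 genes in Wnt5a libraries and 6.56 to 9.23% in WT libraries. No Wnt5a library reached the lowest WT library in any of these measures, all of which contain Ap2b1 and are therefore not independent of its choice. The ratio of sigma 2 to mu 2 overlapped between the groups (0.728 to 1.74 in Wnt5a, 1.38 to 2.89 in WT), as did the ratio of alpha A to alpha C (0.00753 to 0.0510 in Wnt5a, 0.0434 to 0.156 in WT). The ratio of the clathrin light chains Clta to Cltb had a median of 7.06 in Wnt5a and 7.14 in WT.

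The closest paralogue of Ap2b1 is Ap1b1, which encodes the beta 1 chain of AP-1, the adaptor of the trans-Golgi network and endosomes. Ap1b1 had 75.3, 49.4, 62.3, 36.7 and 35.7 CPM in Wnt5a, against 30.0 to 54.1 CPM in WT. Its log2 fold change was 0.34 (SE 0.27), of the opposite sign to that of Ap2b1. The ratio of Ap2b1 to Ap1b1 per kilobase was 0.201 to 0.573 in Wnt5a, against 0.902 to 1.66 in WT, so the beta 2 transcript was the less abundant of the pair in all 5 Wnt5a libraries and the more abundant in 5 of 6 WT libraries.

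**Figure D3:**
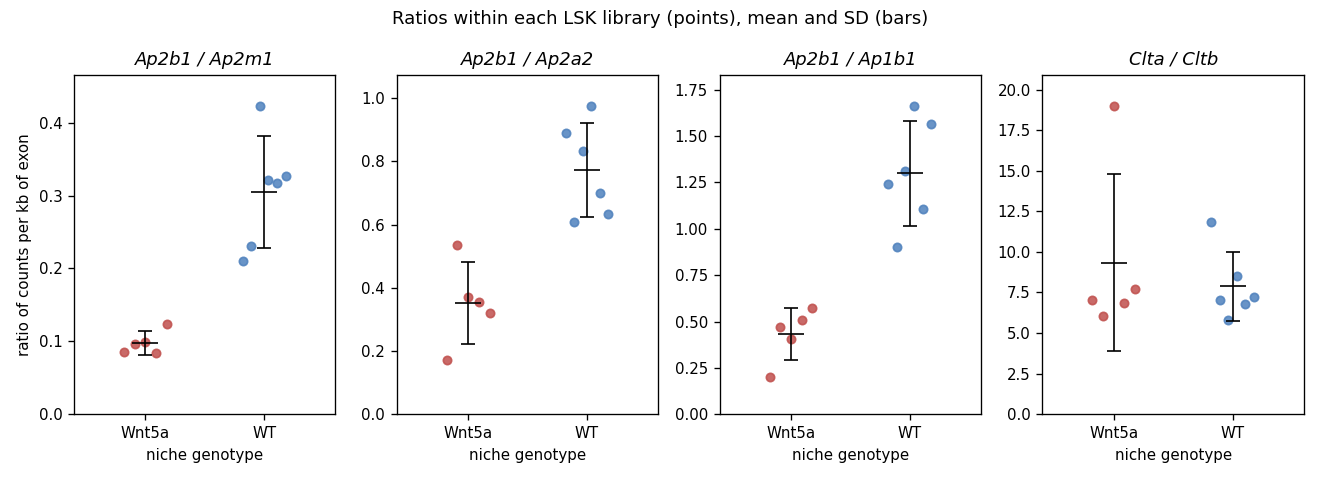
Ratios of counts per kilobase of exon within each LSK library (points) by niche genotype, with the mean and SD (bars). The 3 ratios with Ap2b1 on top do not overlap between Wnt5a and WT (0.0838 to 0.124 against 0.210 to 0.423 for Ap2m1 below), and the ratio of the clathrin light chains overlaps.

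Other genes at some of these loci could share reads with the coat genes, since strand use in the counting is not given in the sources used here. Ap2a1 shares 720 exon bases with the antisense gene Fuz, which had 129 reads over all LSK libraries where Ap2a1 had 11 in Wnt5a and 103 in WT, so the low level of Ap2a1 is uncertain. Dnm2 shares 207 exon bases with Tmed1, which had 597 LSK reads where Dnm2 had 639 in Wnt5a and 944 in WT, so part of the Dnm2 reads is uncertain too. Ap2a2 shares 241 with Gm16982, a transcript with 3 reads in all.

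The make-up of the libraries also differed between the groups. All Wnt5a libraries except replicate 5 had more satellite-like reads than any WT library. In replicate 5, satellite-like (0.341%) and mitochondrial reads (2.54%) lay within the WT range, and Ap2b1 stood at 36.1 CPM, below every WT library. Replicate 5 was the library with 8.28% immunoglobulin reads, and the 4 other Wnt5a libraries (0.264 to 0.972% immunoglobulin) had 26.8 to 44.7 CPM. Of 10 endothelial markers, all were detected, and their sum was 184 to 332 CPM in Wnt5a and 346 to 531 CPM in WT, without overlap. The endothelial genes Cdh5 and Cldn5 were at or near 0 in both groups (at most 1.17 and 0.788 CPM in Wnt5a, and 0.797 and 0.441 CPM in WT). Others were not, with Egfl7 at 35.1 to 50.2 CPM in Wnt5a and 73.6 to 147 CPM in WT, and Emcn at 30.5 to 117 CPM in Wnt5a and 78.1 to 194 CPM in WT. The sum of 8 neutrophil markers was 29.2 to 55.3 CPM in Wnt5a and 6.38 to 43.0 CPM in WT, and that of 8 B and plasma cell markers was 2114 to 36050 CPM in Wnt5a and 1800 to 10410 CPM in WT. The part of these differences in the level of Ap2b1 was not tested.

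**Figure D4:**
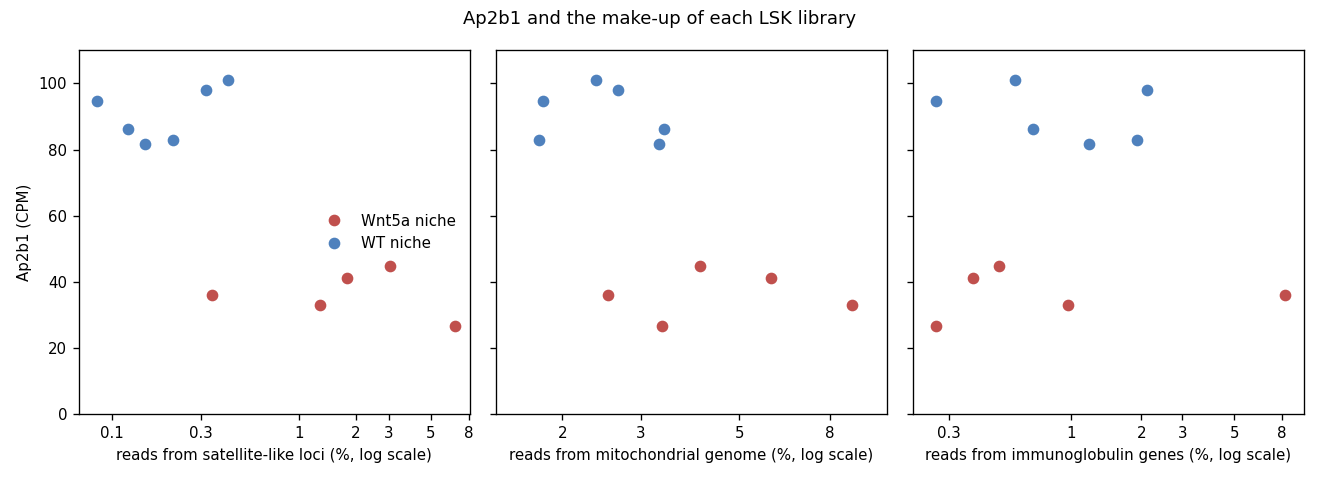
Ap2b1 (CPM) in each LSK library against the share of reads from satellite-like loci, the mitochondrial genome and immunoglobulin genes (%, log scale). Wnt5a replicate 5 lies within the WT range of the first 2 shares (0.341% and 2.54%) and has 36.1 CPM of Ap2b1.

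The label numbers of the LSK libraries have 4 digits in all WT and in 3 Wnt5a libraries, and 3 digits in Wnt5a replicates 4 and 5. What the numbers stand for is not given. Ap2b1 was 26.8 to 44.7 CPM in the 3 Wnt5a libraries with 4 digits, and the 2 others lay inside that range. Among the libraries with 4 digits alone, the log2 fold change of Ap2b1 was -1.28 (SE 0.24), that of Ap2s1 -0.75 (SE 0.25) and that of Clta 0.56 (SE 0.21). Of 13910 genes tested in this subset 6.34% passed, and of the coat genes Ap2b1 did. Ap2b1 was chosen on a comparison that holds these same libraries, so this is a description and no separate test. Over all libraries the log2 fold change of Ap2b1 ran from -1.41 to -1.22 with 1 library left out. It no longer passed without any 1 of the 6 WT libraries or of Wnt5a replicates 2, 3 and 4, with limma voom, or when satellite, olfactory receptor and mitochondrial-genome genes were left out.

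The genes whose LSK profile was most like that of Ap2b1 were taken as those with the highest Pearson correlation of log2 CPM over the 11 LSK libraries, among 11151 genes. They were Rad52, a DNA repair gene (r = 0.934), F2rl3, a thrombin receptor (0.933), Mrpl9, of the mitochondrial ribosome (0.927), Cars2, a mitochondrial tRNA synthetase (0.921), and Faap20, of the Fanconi anaemia pathway (0.912). All 5 had lower means in Wnt5a, as with 49.6 against 76.6 CPM for F2rl3 and 17.5 against 48.3 CPM for Mrpl9. With the group means removed, r was 0.778 for Mrpl9 and 0.314 to 0.559 for the other 4, so the likeness was weaker within the groups. Among the coat genes, Ap2a1 ranked 27th (0.867, and 0.426 within the groups) and Ap2s1 131st (0.792, and 0.314 within the groups). The 7 others ranked 3258th or lower, with r from 0.308 for Picalm down to -0.49 for Cltc and -0.53 for Clta. Within the groups, r of these 7 ran from -0.472 for Cltb to 0.286 for Cltc. The sign changed for Cltc, for Ap2m1 (-0.396, and 0.241 within the groups) and for Ap2a2 (0.116, and -0.312 within the groups). The ranks thus contain the group difference for which Ap2b1 was chosen.

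The wider pathway in LSK cells gave no gene past the test, against 0.0229% over all genes, in 6 lists of related genes. Among 37 tested clathrin accessory genes, 23 log2 fold changes were positive (median 0.18). Those with the smallest p were Pip5k1a, which makes the PIP2 that AP-2 binds (20.4 ± 7.59 CPM in Wnt5a and 49.3 ± 10.2 CPM in WT, log2 fold change -1.25, SE 0.30), and Ocrl, which removes it from the uncoating vesicle (171 ± 39.3 CPM in Wnt5a and 286 ± 44.8 CPM in WT, -0.73, SE 0.18). Of 14 cargo adaptors 8 were positive (median 0.11), led by the ubiquitin ligase gene Cblb (0.86, SE 0.25) and its partner Sh3kbp1 (0.54, SE 0.16).

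Of 24 tested genes of other adaptor complexes, 16 were negative (median -0.20), with Ap1s3 (1.24, SE 0.35) and Ap1g1 (-0.99, SE 0.35), a small and a large chain of AP-1, in opposite directions. Of 13 cargo receptors 10 were positive (median 0.24), with the WNT co-receptor Lrp5 at 11.5 ± 5.16 CPM in Wnt5a and 3.99 ± 2.43 CPM in WT (1.53, SE 0.58) and the insulin receptor Insr at -0.73 (SE 0.27). Of 25 early and recycling endosome genes 18 were positive (median 0.14). The endosomal GTPase gene Rab21 had 158 ± 36.0 CPM in Wnt5a and 75.9 ± 21.0 CPM in WT (1.06, SE 0.23), and the Rab5 effector gene Rabep1 had -0.70 (SE 0.25). Of the caveolar genes, which serve a clathrin-independent route, 4 were tested and 3 were positive (median 0.05), with Cavin2 at -0.40 (SE 0.54) and Cavin3 at 0.25 (SE 0.41). The median over all genes tested was 0.02.

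In the niche, where the Wnt5a genotype is that of the sorted cells, no coat gene passed the test between Wnt5a and WT. These libraries were shallow, with 18542 to 117989 UMIs (unique molecular identifiers, which count cDNA molecules) in EC, 10635 to 29772 in OBC and 19999 to 50421 in MSC. The niche and LSK tables come from different protocols and were scaled apart, so levels are not compared between them. Of the 10 coat genes, 1 passed the filter on low counts, Clta, among 1099 genes in all. In EC, Clta had 4, 29 and 7 UMIs in Wnt5a (174 ± 52.9 CPM) and 12, 16 and 29 in WT (169 ± 49.9 CPM, SD, n = 3 each), and the log2 difference was 0.05 (SE 0.49, edgeR adjusted p = 0.981).

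In OBC, Clta had 1, 2 and 0 UMIs in Wnt5a and 6, 1 and 1 in WT (-1.11, SE 0.99, edgeR adjusted p = 0.815). In MSC it had 4, 6 and 6 UMIs in Wnt5a and 8, 7 and 14 in WT (-0.50, SE 0.58, edgeR adjusted p = 0.686). The mean of the 3 differences was -0.52 (SE 0.42, edgeR adjusted p = 0.578), and the difference between populations was not past the test either (edgeR adjusted p = 0.862). Over all genes 0.364% passed in EC, 1.27% in OBC, 0.455% in MSC, 3.09% for the mean and 0.546% for the interaction. The 95% interval of Clta in EC reached from -0.93 to 1.03 on the log2 scale, which contains its value in LSK cells (0.44).

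To show all 10 genes, the same fit was repeated on the 7767 genes with 15 or more UMIs over all niche libraries, a limit chosen after seeing the data. Again 0 of 10 passed between Wnt5a and WT in EC, OBC, MSC, their mean or the interaction, where 0.0772%, 0.167%, 0%, 0.283% and 0.129% of genes passed. The unadjusted edgeR p was under 0.05 for Cltb in OBC and in the interaction and for Dnm2 in MSC. Of all 7767 genes, 366 were under 0.05 in OBC, 369 in the interaction and 741 in MSC. These 2 coat genes are therefore not read as standing out. Ap2b1 had 0, 13 and 3 UMIs in EC Wnt5a and 5, 4 and 13 in EC WT. Its log2 fold change in EC was -0.06 (SE 0.74) with a 95% interval from -1.51 to 1.40, which contains the value measured in LSK cells. In MSC, Ap2b1 had 0, 2 and 2 UMIs in Wnt5a and 3, 4 and 2 in WT (-0.996, SE 0.99, edgeR adjusted p = 0.791).

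In OBC, Ap2b1 had 0 UMIs in each Wnt5a library and 1, 0 and 1 in WT, and no fold is given, since both groups are at or under 3 UMIs. Over the 49177 UMIs of the OBC Wnt5a libraries the floor of 3 UMIs is 61.0 CPM, and the exact 95% Poisson interval of a count of 0 reaches 75.0 CPM. Ap2b1 and Ap2a1 were the coat genes with no UMI in that group. Cltb in OBC had 2, 2 and 3 UMIs in Wnt5a and 0, 1 and 0 in WT (edgeR unadjusted p = 0.0358, adjusted p = 0.752). Dnm2 in MSC had 0, 5 and 0 UMIs in Wnt5a and 6, 4 and 8 in WT (edgeR unadjusted p = 0.0483, adjusted p = 0.516).

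**Figure D5:**
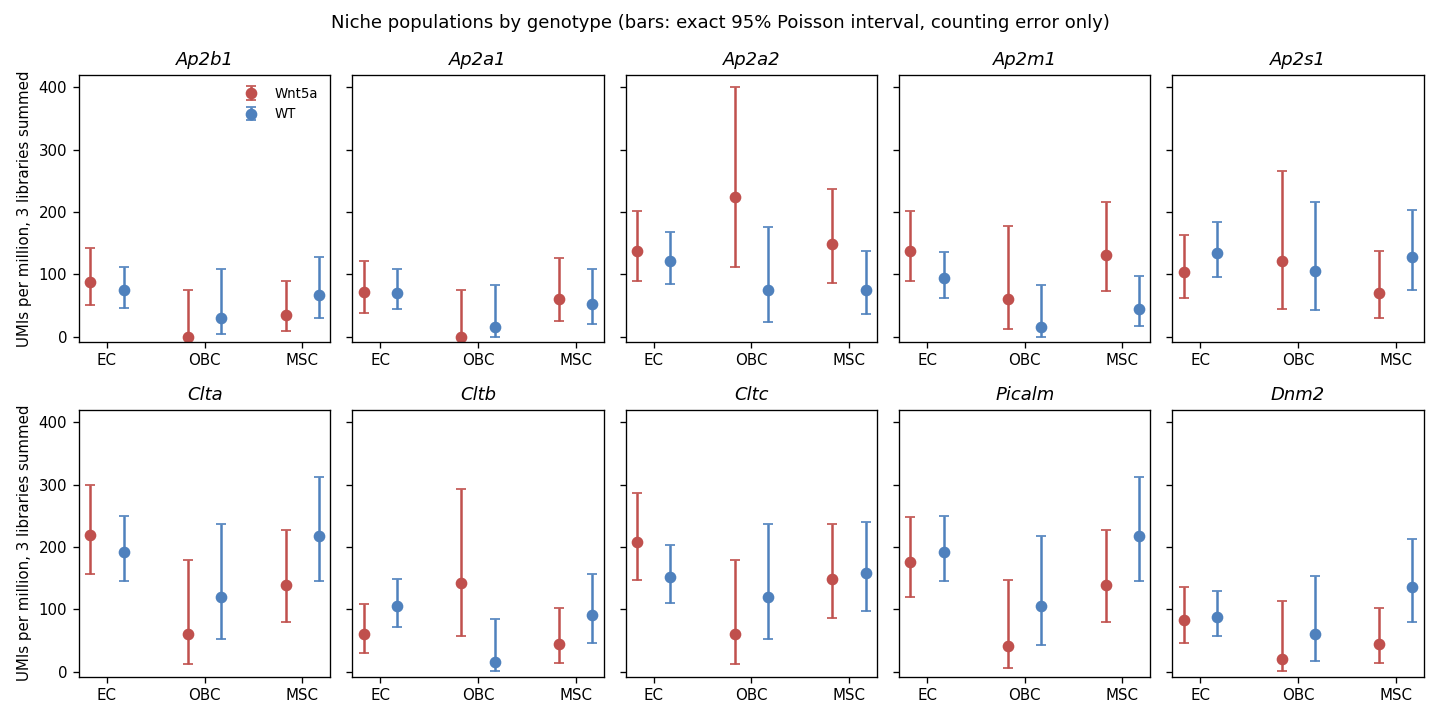
CPM of each coat gene with the UMIs of the 3 libraries of a group summed, by niche population and genotype (Wnt5a left, WT right); bars are exact 95% Poisson intervals, which cover counting error only. Ap2b1 and Ap2a1 have 0 UMIs in OBC Wnt5a, and the intervals of Wnt5a and WT overlap for all 10 genes in EC, OBC and MSC.

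Between the populations, OBC held the smallest share of coat transcripts in unscaled totals. The 10 genes together took 0.0893 to 0.145% of UMIs in EC, 0.0571 to 0.0801% in OBC and 0.0750 to 0.143% in MSC (lowest and highest of 6 libraries each). No OBC library reached the lowest EC library, and MSC overlapped both. This separation does not hold after TMM scaling. Scaling reverses the order of OBC WT replicate 7 (0.0728%, TMM factor 0.761) and EC Wnt5a replicate 16 (0.0917%, TMM factor 1.17). The summed values below are unscaled too. With libraries summed, this was 1247 CPM in EC (95% Poisson interval 1149 to 1351), 692 in OBC (548 to 861) and 1080 in MSC (955 to 1217). Ap2b1 followed the same order, with 38 UMIs in EC (79.4 CPM, 56.2 to 109), 2 in OBC (17.3, 2.09 to 62.5) and 13 in MSC (52.4, 27.9 to 89.6), and the intervals of every pair of populations overlapped. Ap2a1 had 34 UMIs in EC (71.0 CPM), 1 in OBC (8.65) and 14 in MSC (56.4), while Ap2a2 stood at 127 CPM in EC, 138 in OBC and 109 in MSC.

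In the fit of filtered genes Clta did not pass in any population against the mean of the other two (0.49 in EC, -0.82 in OBC and 0.32 in MSC; edgeR adjusted p = 0.294, 0.195 and 0.732), where 40%, 46% and 6.73% of all genes passed. Among the genes with 15 or more UMIs, Ap2b1 (edgeR adjusted p = 0.0427) and Ap2a1 (0.0449) passed as higher in EC, as did 13.4% of all genes. Ap2a1 (edgeR adjusted p = 0.0412) and Picalm (0.0301) passed as lower in OBC, as did 9.84%. All 10 coat genes had positive values in EC (median 0.86, beside 0.70 for all genes) and negative values in OBC (median -1.33, beside -0.92). Over all genes, 76.6% had positive values in EC and 23.1% in OBC. Both comparisons use the same libraries, so these signs are not separate results. With RLE in place of TMM scaling 0 coat genes passed in either comparison, and leaving out 1 library at a time gave 0 to 3 in EC and 0 to 2 in OBC. The fitted folds of Ap2b1 and Ap2a1 rest on OBC groups with 0 to 2 UMIs and are not given as sizes. OBC libraries are also the shallowest, and the part of depth in these calls was not tested. Over all genes 15.5% passed in EC, 12.3% in OBC and 0.991% in MSC, where no coat gene did.

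In the related lists, 0 genes passed between Wnt5a and WT in any niche comparison. Between populations several passed, beside 40% of all genes in EC, 46% in OBC and 6.73% in MSC, and their counts are not read as particular to the lists. Hspa8, whose product strips the clathrin coat, was higher in EC (1.01, SE 0.26, edgeR adjusted p = 0.00156) and lower in OBC (-1.30, SE 0.33, 0.00113), and the other clathrin accessory gene tested, Epn2, passed in neither. Lrp1, a large endocytic receptor, was lower in EC (-3.94, SE 0.64, edgeR adjusted p = 4.54e-06), higher in OBC (1.99, SE 0.62, 0.00727) and higher in MSC (1.96, SE 0.50, 0.0146). Stab1, a scavenger receptor of sinusoidal endothelium, was higher in EC (1.63, SE 0.38, edgeR adjusted p = 0.000738) and lower in OBC (-1.43, SE 0.58, 0.0400). Of 3 endosome genes tested, Rab11a, of the recycling endosome, was higher in EC (1.44, SE 0.47, edgeR adjusted p = 0.0124) and lower in OBC (-1.81, SE 0.72, 0.0352), and Ehd1 was lower in OBC (-1.0, SE 0.41, 0.0435).

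Of 11 caveolar genes, 6 passed the filter on low counts and were tested between populations. Of these 6, 5 were higher in EC, where 24.4% of all genes were, and 6 were lower in OBC, where 26.8% were, with the same counts under RLE scaling. A gene could pass the filter through the population where it is high, and both comparisons use the same libraries. The counts are therefore a description of the genes tested. In MSC 1 was higher (Cavin2, 0.76, edgeR adjusted p = 0.0425), beside 4.82% of all genes, and 2 were under RLE scaling. Cav1, the main caveolin, averaged 1145 ± 383 CPM in EC Wnt5a and 1270 ± 319 CPM in EC WT, 347 ± 121 CPM in OBC Wnt5a and 290 ± 204 CPM in OBC WT, and 719 ± 277 CPM in MSC Wnt5a and 1474 ± 389 CPM in MSC WT (SD, n = 3 each). Its log2 difference was 1.12 in EC (SE 0.25, edgeR adjusted p = 0.000386) and -1.90 in OBC (SE 0.32, 3.09e-06). In MSC all 6 caveolar genes had negative Wnt5a over WT values (median -0.75, beside -0.03 for all genes), with Cav1 at -1.21 (SE 0.39, edgeR adjusted p = 0.0878). RLE scaling moved the median of all genes in that comparison by -0.21, and that of OBC against the other populations by -0.11. The sum of 10 endothelial markers was also lower in MSC Wnt5a (13530 to 18550 CPM) than in MSC WT (21280 to 24950 CPM). The part of endothelial transcripts in these caveolar values was not tested.

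The population labels bear on these comparisons. The sum of 9 osteoblast markers was 2040 to 4836 CPM in OBC Wnt5a and 4795 to 14570 CPM in OBC WT. Over both genotypes it was 168 to 378 CPM in EC and 580 to 1368 CPM in MSC. Single genes of that list overlapped, as with Alpl (0 to 268 CPM in OBC WT and 52.5 to 161 CPM in EC WT). The sum of 10 endothelial markers was 21630 to 31870 CPM in EC Wnt5a and 13190 to 27750 in EC WT, 4210 to 9471 in OBC Wnt5a and 3493 to 7804 in OBC WT, and 13530 to 18550 in MSC Wnt5a and 21280 to 24950 in MSC WT. Libraries labelled MSC thus held endothelial transcripts, in WT at levels within the EC range. In Wnt5a, every MSC library lay below every EC library, and also below every MSC WT library. The 8 mesenchymal markers summed to 2599 to 7100 CPM in MSC and 3015 to 7705 CPM in OBC over both genotypes. This sum mixes genes of opposite order. In WT, Cxcl12 was 4513 to 6214 CPM in OBC and 1317 to 1884 CPM in MSC, and Vcam1 was also higher in OBC. Dcn was 134 to 920 CPM in OBC WT and 1558 to 1864 CPM in MSC WT, and Lum and Pdgfra were also higher in MSC WT. The ranges of the other markers overlapped in WT. The sum of 8 neutrophil markers was higher in Wnt5a than in WT in each population without overlap (1401 to 2679 against 300 to 441 CPM in EC, 5537 to 9046 against 2338 to 4607 CPM in OBC, and 2400 to 3708 against 1178 to 1426 CPM in MSC). Single genes of the list overlapped, as with Camp in OBC (583 to 797 CPM in Wnt5a and 94.0 to 705 CPM in WT). The mitochondrial share was 3.57 to 8.47% in OBC Wnt5a and 11.96 to 17.1% in OBC WT, and 0.951 to 4.44% over the EC and MSC libraries. EC WT replicate 14 had 24.3% haemoglobin. The part of other cell types in the niche values of the coat genes and of the related lists was not tested.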

How the data were processed

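LSK cells (11 libraries) and 3 niche populations (18 libraries) were measured by RNA sequencing of sorted cells. The deposited LSK table holds read counts from Smart-seq2 libraries, and the deposited niche table holds UMI counts from barcoded, pooled cDNA, both made with the Nextera XT kit, per the labels' protocols. STAR, featureCounts and the mm10 (GRCm38) build are named in the submitters' processing notes, without versions. UMI collapsing, annotation release and strand setting were not given in the sources used here. The 28 spike-in entries were left out of the totals.

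The test was the robust quasi-likelihood test of edgeR 4.0.16 (R 4.3.3) after filterByExpr (minimum count 10, total 15) and TMM scaling, with 1 fit for LSK and 1 for all 18 niche libraries. A gene passed when its p, adjusted by Benjamini-Hochberg across the whole table, was under 0.05. CPM of single genes use TMM-scaled totals of all genes, whereas marker genes and their sums, pooled niche CPM and floors use unscaled totals. SE is the log2 fold change over the square root of F. Poisson intervals (95%) and the floor of 3 counts cover counting error only, since reads are not independent molecules. The fit was tested on simulated data. Of the changed genes tested in LSK, it recovered 19.6% at 2-fold and 66.3% at 4-fold, with 1 false call among 83. In EC, where it was run on 1082 genes, it recovered 20.2% at 2-fold and 86% at 4-fold, with 7 false calls among 113. Most 2-fold changes would thus be missed. Recovery in EC of the coat genes that did not pass the filter on low counts was not tested. Exon lengths and overlaps are from GENCODE vM21 and promoters from RefSeq (GRCm38.p6), where all 10 coat genes matched.

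Named genes are the 10 coat genes, Ap1b1, in each related list all genes past the test (at most 5, by p) and otherwise the 2 with the smallest p, and the 5 most like Ap2b1. Fuz was added for its overlap with Ap2a1, and overlaps at the Ap2b1 locus are not reported here. Members and lists were chosen with earlier results of these data known. Alternatives were RLE scaling, no filter, DESeq2 1.42.0, limma 3.58.1 voom, leaving out each replicate, LSK subsets, each niche population alone and the limit of 15 UMIs. The labels give the groups compared no shared replicate numbers, and the numbers of LSK libraries are names in accession order.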

Additional observations from a re-analysis of the deposited data

Results flagged for a closer look

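Of 38 groups of LSK values checked for 1 library far from the rest, 4 were picked out, where chance alone picks about 1 in 20. Ap2a1 stood at 3.02 CPM in Wnt5a replicate 3, against 0.284 to 1.02 CPM in the other 4 Wnt5a libraries, a gap that rests on 5 reads. Dnm2 stood at 15.7 CPM in Wnt5a replicate 4, against 51.4 to 62.7 CPM in the other 4. The ratio of Clta to Cltb per kilobase was 19.0 in Wnt5a replicate 3, against 6.07 to 7.69 in the other 4, with Cltb at 21.8 CPM there. Immunoglobulin genes took 8.28% of reads in Wnt5a replicate 5, against 0.264 to 0.972% in the other 4.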

How the results depend on the processing

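No paired analysis was run, because the labels give the groups compared no shared replicate numbers. The niche samples are listed in runs of 1 MSC, 1 OBC and 1 EC library, and whether such a run shares animals is not given. The comparisons between populations treated all 18 niche libraries as independent, and any sharing was not modelled. In LSK cells the log2 fold change of Ap2b1 ran from -1.41 to -1.22 with 1 library left out, where its sign is fixed by groups that do not overlap. The count of coat genes past the test was 1 with RLE scaling, without the filter, with DESeq2 and among libraries with 4-digit numbers. It was 0 with limma voom and without satellite, olfactory receptor and mitochondrial-genome genes, and 0 to 1 with 1 library left out. Ap2b1 was chosen on these libraries, so these LSK counts are a description and no separate support. Over all genes the LSK count of 3 was 343 without the filter, 656 with DESeq2, 0 with voom, 882 among 4-digit libraries, and 0 to 1114 with 1 library left out, highest without Wnt5a replicate 5. In the niche, 0 coat genes passed between Wnt5a and WT under every alternative run. The count in OBC against EC and MSC was 0 to 1 with 1 library left out (Picalm, without OBC WT replicate 8). With 15 or more UMIs, a limit chosen after seeing the data, it was 2 in EC and 2 in OBC; RLE scaling turned both to 0, and leaving out 1 library gave 0 to 3 and 0 to 2. Clta in EC was -0.029 without the filter and -0.058 with 15 or more UMIs, and ran from -0.14 to 0.30 with 1 library left out, negative without EC WT replicate 13. Clta in OBC ran from -2.02 to 0.14, positive without OBC WT replicate 7. The cause of these shifts was not tested. Over all genes, the counts in MSC (5) were 9 with RLE, 0 without the filter, 36 with DESeq2, 11 with voom, 71 with MSC libraries alone and 0 to 42 with 1 library left out. That in EC (4) was 2 with EC libraries alone and 2 to 22 with 1 library left out, that in OBC (14) 3 to 17, that of the mean (34) 14 without the filter and 14 to 71, and that of the interaction (6) 10 and 2 to 15. Against the other populations, EC (440) gave 880 and OBC (506) 789 without the filter, and MSC (74) gave 49 with voom and 38 to 94 with 1 library left out. With 15 or more UMIs the counts were 0 in MSC, 22 for the mean, 10 for the interaction, 1201 in EC and 954 in OBC against the other populations. At the depth of the niche libraries 9 of 10 coat genes did not reach the filter.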
